A study of Mus musculus with 28 samples.

Results

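The genes described here are *T* (Brachyury), *Eomes* and *Tbx6*, the T-box transcription factor genes of the primitive streak and its mesoderm. They were chosen by name, and all 3 were found among the 22380 protein-coding genes of the GENCODE annotation of the mm9 genome. T-box factors bind DNA through a shared domain and regulate lineage genes. *Eomes* acts first, in the epiblast and early streak, downstream of Nodal and activin signaling, and directs cardiac mesoderm and definitive endoderm. *T* marks the whole streak and is needed for mesoderm and notochord, and *Tbx6* acts in the mesoderm that leaves the streak, where it directs paraxial mesoderm at the expense of neural tissue.

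The cultures were mouse embryonic stem cells (ESCs) carried to day 4, which includes 40 h in VEGF, Activin A and BMP4, the factors that induce mesoderm. The cells carried floxed alleles of *Brg1*, the ATPase of the BAF chromatin remodeling complex, and a tamoxifen-inducible Cre expressed constitutively (Brg1f/f; Actin-CreER), in control and treated cultures alike. At day 2 they received 200 nM 4-hydroxytamoxifen (4-OHT) in tetrahydrofuran (THF), which deletes *Brg1*, or THF alone as the control. ChIP-seq, which sequences the DNA pulled down by an antibody, was done for H3K27ac, the acetylation of active promoters and enhancers (2 control and 2 4-OHT replicates), for H3K27me3, the Polycomb mark of repressed genes (3 and 3), and for Suz12, a subunit of the complex that writes H3K27me3 (2 and 2). Brg1 itself was mapped in 3 replicates through a FLAG tag in cells with normal *Brg1*. The labels give the Brg1f/f; Actin-CreER genotype for these too, whereas the methods of the study describe an ESC line with FLAG at the endogenous *Brg1* locus. The study also describes FLAG in biological duplicate and kept regions enriched in both, whereas 3 FLAG lists were used here. Each replicate has 1 list of enriched regions with position only, so the value per sample is the length covered by regions in a window. The lists give no view of the *Brg1* deletion.

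The H3K27ac lists held 32161 to 41062 regions, the H3K27me3 lists 6787 to 16959 and the Suz12 lists 2913 to 4016. FLAG replicates 1 and 2 held 8021 and 8257 regions, and replicate 3 stood apart with 192. Of the 5 streak and mesoderm markers, *Mixl1*, *Mesp1*, *Evx1* and *Pdgfra* carried H3K27ac within 5 kb of the TSS in every control list and *Kdr* in none. H3K27ac was also present in control lists at the pluripotency genes *Pou5f1* and *Nanog*, with 6250 and 4206.5 bp on average, and absent at neural *Pax6* and *Neurog2*, at the endoderm genes *Sox17* and *Foxa2*, and at cardiac *Myh6* and *Myh7*. Of the 9 markers with H3K27ac in any list, 5 were lower after 4-OHT without overlap between replicates and 0 higher, beside 12.6% and 39.8% of all genes. The 5 were the streak markers *Mesp1* and *Evx1*, the pluripotency gene *Nanog* (3419 bp on average after 4-OHT), the endoderm gene *Cer1* (1575 bp in the control mean, 162.5 bp in the 4-OHT mean) and cardiac *Tnnt2* (1250 and 0 bp). The replicates overlapped at *Mixl1* (2687.5 and 2537.5 bp), *Pdgfra* (6150 and 4237.5 bp), *Pou5f1* (6337.5 bp after 4-OHT) and the pluripotency gene *Zfp42* (187.5 and 850 bp). The cultures are bulk samples, so fewer cells with a region and a weaker signal per cell cannot be told apart, and the part of cell composition in the results was not tested.

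The stretches of DNA on which the results turn are printed first, from the forward strand of the mm9 genome, which is also the coding strand of the 3 genes. They are the bases covered in every FLAG list that named the region. The regions are the Brg1-bound ones nearest to *T*, at the edge of *Tbx6* and at 3 places around *Eomes*. For *Tbx6* only the 126 of 175 such bases that lie past the gene end are printed. The 300 bases before the *T* TSS, where neither 4-OHT list held H3K27ac, are printed too. Capitals mark matches to 5 short motifs of streak regulators, of which these stretches held 1, a Tcf/Lef motif in the *T* promoter.
*T* promoter, chr17:8626988-8627287: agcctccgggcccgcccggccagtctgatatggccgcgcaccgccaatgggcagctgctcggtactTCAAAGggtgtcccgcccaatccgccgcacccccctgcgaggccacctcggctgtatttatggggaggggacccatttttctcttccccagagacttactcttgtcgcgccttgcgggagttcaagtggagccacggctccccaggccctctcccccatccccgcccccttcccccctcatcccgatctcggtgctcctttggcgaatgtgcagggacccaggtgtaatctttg
*T*, -4.94 to -4.86 kb, chr17:8622351-8622425: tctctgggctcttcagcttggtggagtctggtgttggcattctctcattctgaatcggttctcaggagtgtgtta
*Eomes*, -33.1 to -32.9 kb, chr9:118354201-118354450: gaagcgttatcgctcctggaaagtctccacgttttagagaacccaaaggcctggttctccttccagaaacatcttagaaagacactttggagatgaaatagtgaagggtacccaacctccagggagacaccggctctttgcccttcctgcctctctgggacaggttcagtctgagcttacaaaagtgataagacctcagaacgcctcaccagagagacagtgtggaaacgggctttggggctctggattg
*Eomes*, -9.65 to -9.61 kb, chr9:118377676-118377725: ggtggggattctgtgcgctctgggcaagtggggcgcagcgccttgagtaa
*Eomes*, 8.97 to 9.22 kb, chr9:118396301-118396550: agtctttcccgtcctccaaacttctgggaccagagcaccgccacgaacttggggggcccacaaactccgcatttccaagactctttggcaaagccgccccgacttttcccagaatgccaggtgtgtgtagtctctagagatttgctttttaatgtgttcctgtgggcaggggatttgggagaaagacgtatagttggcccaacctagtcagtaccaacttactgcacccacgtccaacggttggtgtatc
*Tbx6*, 4.08 to 4.20 kb, chr7:133929075-133929200: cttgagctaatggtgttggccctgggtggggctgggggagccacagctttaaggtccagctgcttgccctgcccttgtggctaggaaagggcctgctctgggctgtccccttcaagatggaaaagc

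The motifs were searched on both strands in 300 bp around the center of each Brg1-bound region and in the 300 bp before each TSS. The T-box motif was searched as GGTGTGA, that of Foxh1, a cofactor of Nodal signaling, as AATCCAC, that of the GATA factors as AGATAAG, the forkhead (Fox) motif as TGTTTAC and the Tcf/Lef motif of Wnt signaling as TCAAAG. None of the 7 Brg1-bound windows at the 3 genes held the T-box, Foxh1, GATA or Tcf/Lef letters. Among the windows of all 2390 Brg1-bound regions, 5.77%, 4.02%, 5.77% and 21.1% held them, in that order. The Fox letters lay in 2 of the 7 windows, at -45.0 kb of *T* and at -9.62 kb of *Eomes*, beside 5.06% of the windows of all bound regions. At *T* the match lay in the window but outside the bound region, which is 200 bp wide. The promoters of *Eomes* and *Tbx6* held no match to any of the 5, and that of *T* held the single Tcf/Lef match, which 16.4% of the 22380 coding promoters hold. The T-box, Foxh1, GATA and Fox letters lay in 3.84%, 2.67%, 2.98% and 3.46% of these promoters. Only these exact letters were searched, so variants of a motif were not counted at the 3 genes or in the background. An example is tgataag, which differs from the GATA letters at its first base, in the printed stretch at -33.1 to -32.9 kb of *Eomes*. A match is a description of letters and not of a bound site.

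*Eomes* had the most Brg1-bound regions of the 3 genes. The gene spans chr9:118387330-118395250 on the plus strand (ENSMUSG00000032446.8) and lies alone, with only a U4 small nuclear RNA gene upstream and *Golga4*, a Golgi protein gene, beginning at 28.1 kb downstream. Within 50 kb of its TSS, FLAG replicate 1 listed 11 regions covering 2100 bp, replicate 2 listed 7 covering 2025 bp and replicate 3 listed 1 covering 275 bp. Merged over replicates these were 13 regions, of which 4 were in at least 2 lists and are called Brg1-bound, 1 was in all 3 lists and 9 were in 1 list only. A Brg1-bound region lay within 50 kb of the TSS of 9.32% of protein-coding genes and within 5 kb of 2.11%. As many as 4 within 50 kb were held by 45 genes, or 0.201%.

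The 4 Brg1-bound regions of *Eomes* were all outside the gene. Just downstream, chr9:118395376-118395975 was covered for 450 and 600 bp in FLAG replicates 1 and 2, and chr9:118396276-118397200 for 550, 850 and 275 bp in the 3 replicates, the only bound region of the 3 genes in replicate 3. Upstream, chr9:118377601-118377825 at -9.62 kb was covered for 150 and 125 bp, and chr9:118354201-118354550 at -33.0 kb for 350 and 250 bp. All 4 are intergenic. The downstream regions lie close together inside the same H3K27ac block and were counted separately. The share of genes with as many, were neighboring bound regions joined, was not computed. In the TSS window of *Eomes* the FLAG lists named 150 and 50 bp in replicates 1 and 2 that did not overlap each other, so this window held no Brg1-bound region.

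**Figure D1:**
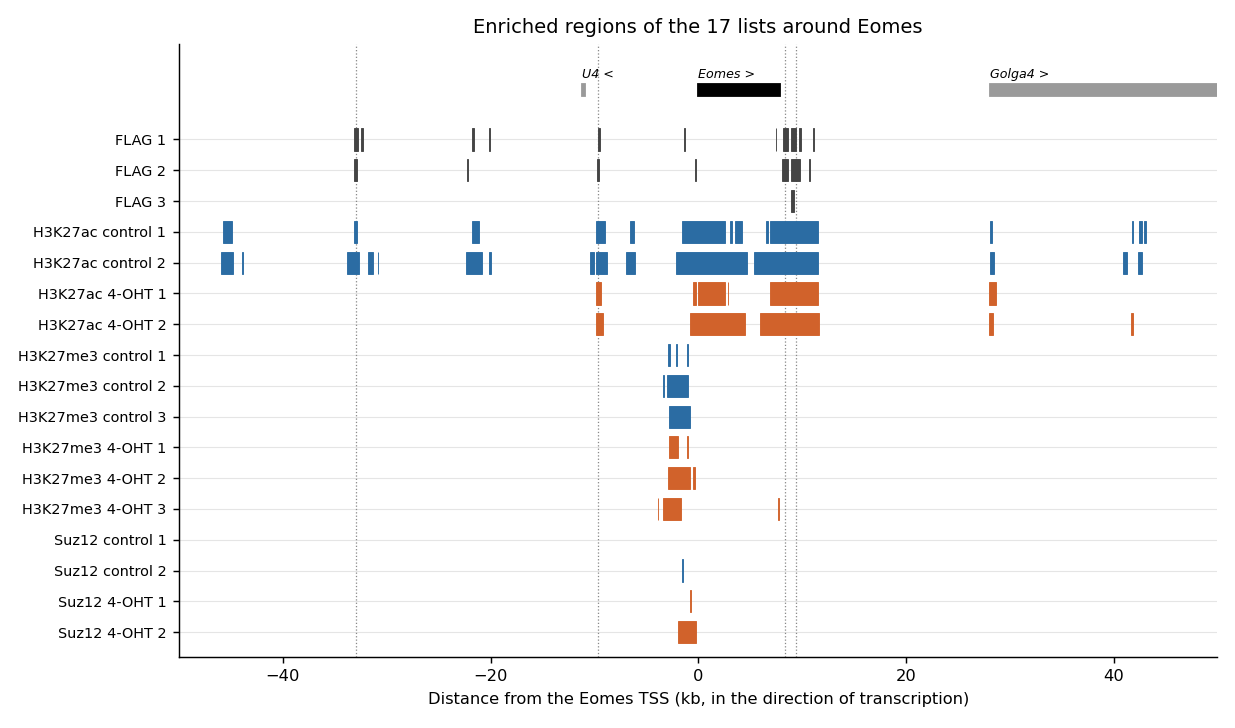
Enriched regions of all 17 lists within 50 kb of the *Eomes* TSS. The horizontal axis is the distance from the TSS in kb, each row is 1 replicate (dark gray FLAG, blue control, orange 4-OHT), bars are regions, dotted lines are the centers of the 4 Brg1-bound regions, and genes are drawn above with > or < for their direction. The regions at -45.4, -33.2, -21.6 and -6.57 kb are in both control H3K27ac lists and in neither 4-OHT list, whereas the block downstream of the gene is in all 4.

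H3K27ac around *Eomes* covered less in both 4-OHT replicates than in either control replicate. Within 50 kb of the TSS the control replicates covered 13675 and 21200 bp and the 4-OHT replicates 8575 and 12125 bp. The means were 17437.5 ± 5321 and 10350 ± 2510 bp (SD, n = 2 each), a difference of -7087.5 bp and a ratio of 0.594. The exact permutation test over samples gave p = 0.333, which is the smallest that 2 replicates against 2 allow, and 0.559 adjusted over 17242 genes. Without overlap, 20.0% of these genes were lower and 39.7% higher, or 16.8% and 49.6% when each list was scaled to the same total covered length. The difference was -3325 bp without control replicate 2 and -10850 bp without control replicate 1, and the replicates stayed apart in both cases.

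Several separate upstream regions were listed in control only. Of the 9 merged H3K27ac regions found in both control lists within 50 kb of *Eomes*, 5 were in neither 4-OHT list. Genome-wide this was so for 20.7% of 26203 such regions. Among the distal ones, more than 2.5 kb from any TSS, it was 5 of 6 at *Eomes* and 33.9% of 13559 genome-wide. Without overlap of replicates, 6 of the 17 merged H3K27ac regions at *Eomes* were lower and 0 higher, beside 18.8% lower and 17.6% higher among 56584 merged regions of the genome.

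The farthest of them, chr9:118341376-118342500 at -45.4 kb, had 875 and 1125 bp of H3K27ac with THF alone and held no FLAG region. The region at -33.2 kb, chr9:118353551-118354675, covered 275 and 1125 bp, and it contains the Brg1-bound region printed above, which was acetylated for 250 and 350 of its 350 bp in control and for 0 bp after 4-OHT. The region at -21.6 kb, chr9:118364926-118366525, covered 725 and 1600 bp, with 200 and 50 bp of FLAG in replicates 1 and 2 that did not overlap each other. Each of these was covered for 0 bp in both 4-OHT lists. So were the region at -6.57 kb, chr9:118380326-118381200, with 375 and 875 bp in control, and one in an intron of *Golga4* at 42.5 kb, with 250 and 375 bp. The 4 upstream regions are intergenic and lie nearest to *Eomes* among coding genes.

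Other H3K27ac regions of *Eomes* were kept. The region at -9.30 kb, chr9:118377476-118378575, covered 875 and 1100 bp in the control lists against 475 and 650 bp in the 4-OHT lists, and its Brg1-bound part stayed covered for all 225 bp in all 4 lists. The block that starts inside the gene and ends 3.68 kb past it, chr9:118392726-118398925, covered 4775 and 6175 bp in the control lists against 4600 and 5675 bp in the 4-OHT lists. It holds both downstream Brg1-bound regions, which were covered over their full 600 and 925 bp in every list. The block over the promoter, chr9:118385151-118392025, covered 5050 and 6875 bp in the control lists against 2825 and 5275 bp in the 4-OHT lists, so that the replicates overlapped. The *Golga4* promoter covered 250 and 425 bp in the control lists against 675 and 375 bp in the 4-OHT lists.

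Within 5 kb of the *Eomes* TSS the same promoter block made up all H3K27ac, which placed *Eomes* above 99.3% of coding genes in control. The mean was 5962.5 ± 1290 bp in control and 4050 ± 1732 bp after 4-OHT (SD, n = 2 each; exact permutation p = 0.667, adjusted 0.899). The values of the groups overlapped. Without control replicate 1, or without 4-OHT replicate 2, they did not, with differences of -2825 and -3137.5 bp. The gene body held 4596 and 7221 bp in the control lists against 3550 and 6471 bp in the 4-OHT lists.

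*T* had less H3K27ac than *Eomes*, and most of its regions were narrower after 4-OHT. The gene spans chr17:8627288-8635361 on the plus strand (ENSMUSG00000062327.3). Upstream lie the noncoding transcripts *T2* and *Gm16702* and the end of *Sft2d1*, a vesicle transport gene, and no coding gene begins within 50 kb other than *T* itself. Within 50 kb of the TSS the control replicates covered 7850 and 9875 bp and the 4-OHT replicates 5550 and 6150 bp, with no overlap. The means were 8862.5 ± 1432 and 5850 ± 424 bp (SD, n = 2 each), a difference of -3012.5 bp and a ratio of 0.660 (exact permutation p = 0.333, adjusted 0.559). The difference was -2000 bp without control replicate 2, with no overlap.

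**Figure D2:**
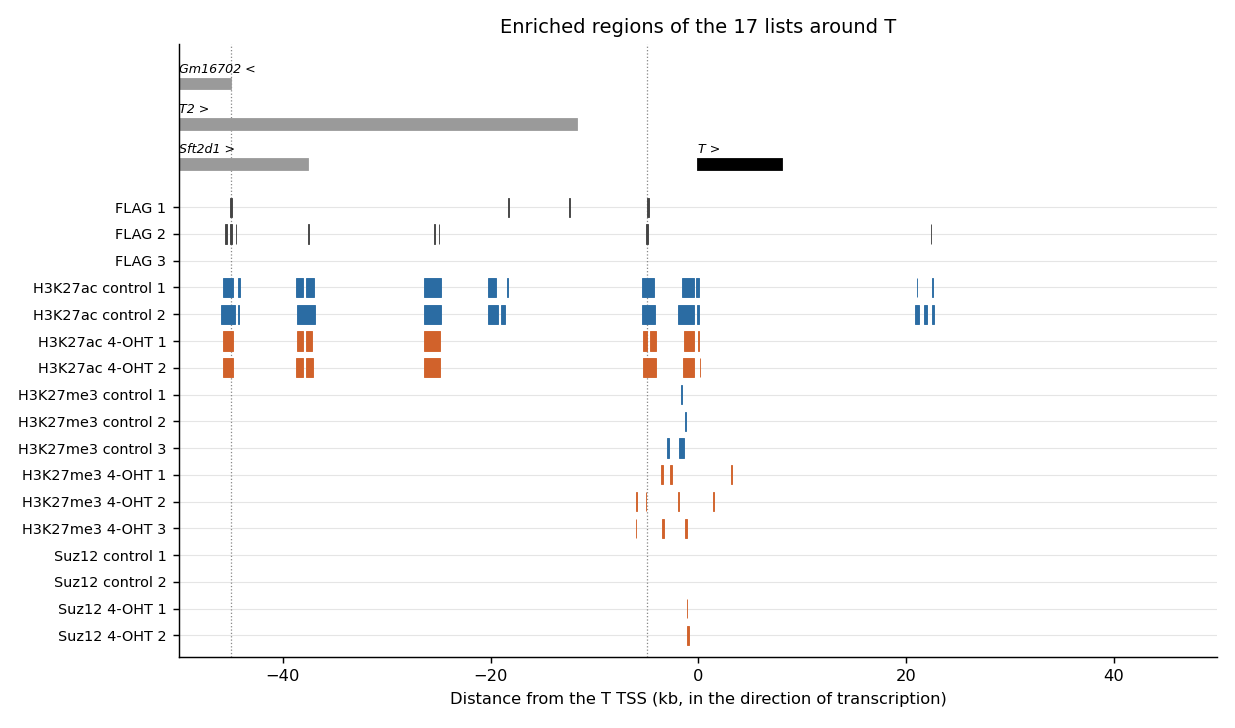
Enriched regions of all 17 lists within 50 kb of the *T* TSS, drawn as for *Eomes*: horizontal axis, distance from the TSS in kb; rows, replicates; dotted lines, the centers of the 2 Brg1-bound regions. The H3K27ac regions at -19.8 kb and past 20 kb are seen in the control rows only. The small region at the TSS shrinks to 50 and 0 bp in the 4-OHT rows, and 4-OHT replicate 2 has a separate 25 bp just past it.

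Of 10 merged H3K27ac regions in both control lists at *T*, 4 were in neither 4-OHT list, and of the 5 distal ones 3, beside the genome-wide 20.7% and 33.9%. Of all 14 merged regions, 9 were lower and 0 higher without overlap, beside the genome-wide 18.8% and 17.6%. The widest of the 4, chr17:8607076-8607975 at -19.8 kb in an intron of *T2*, had 775 and 900 bp in the control lists and none after 4-OHT. The other 3 were narrow in at least 1 control list. They lay at -44.2 kb (175 and 125 bp), 21.0 kb (25 and 400 bp) and 22.6 kb (50 and 150 bp).

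H3K27ac at the *T* promoter was lower too, with no overlap of replicates. Within 5 kb of the TSS the control replicates covered 2188 and 2563 bp, more than 90.8% of coding genes on average, and the 4-OHT replicates 1588 and 1988 bp. The means were 2375.5 ± 265 and 1788 ± 283 bp (SD, n = 2 each), a difference of -587.5 bp and a ratio of 0.753 (exact permutation p = 0.333, adjusted 0.637). Without overlap, 12.6% of 12031 genes were lower in this window and 39.8% higher, or 9.10% and 51.3% with scaled lists. Without 4-OHT replicate 1 the difference was -387.5 bp, and when neighboring regions within 1 kb were joined it was -175 bp and the replicates overlapped.

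At the TSS itself chr17:8627101-8627400, which reaches into the first exon and overlaps the promoter sequence printed above, covered 300 and 225 bp in the control lists against 50 and 0 bp in the 4-OHT lists. The neighboring region at -1.20 kb, chr17:8625326-8626850, covered 1100 and 1525 bp in the control lists against 950 and 1025 bp in the 4-OHT lists. The Tcf/Lef letters of the printed promoter lie just upstream of the region at the TSS. In the gene body 113 and 63 bp were covered in control and 50 and 25 bp after 4-OHT, which is lower without overlap, as it was for 18.3% of 12542 genes.

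Brg1 was bound at 2 places near *T*. FLAG replicates 1 and 2 listed 4 and 8 regions within 50 kb, covering 575 and 750 bp, and replicate 3 none. The region at -4.89 kb, chr17:8622251-8622550, is intergenic and was covered for 200 and 175 bp in FLAG replicates 1 and 2. It lay inside an H3K27ac region, chr17:8621876-8623225, that covered 1175 and 1225 bp in the control lists against 925 and 1300 bp in the 4-OHT lists. The bound part was acetylated for 300 and 300 bp in control and for 100 and 300 bp after 4-OHT.

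The other, chr17:8582151-8582350 at -45.0 kb, overlaps exons of the long noncoding RNA gene *Gm16702*, of *Sft2d1* and of *T2* and was covered for 175 and 200 bp in FLAG replicates 1 and 2. Its 200 bp were acetylated in every list, within a region that covered 1000 and 1325 bp in the control lists against 950 and 950 bp in the 4-OHT lists. Holding 2 or more Brg1-bound regions within 50 kb was shared by 521 genes, or 2.33%.

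*Tbx6* differed from the others in its surroundings and its values. The gene spans chr7:133924997-133929074 on the plus strand (ENSMUSG00000030699.10) in a dense stretch, with the TSSs of *Gm9967* and *Ypel3* at -4.67 and -4.53 kb and those of *Ppp4c*, a phosphatase subunit gene, and *Aldoa*, a glycolytic aldolase gene, at 11.0 and 19.3 kb. Within 5 kb of its TSS the control replicates covered 6376 and 7901 bp of H3K27ac, more than 99.8% of coding genes on average, and the 4-OHT replicates 5704 and 8001 bp. The values overlapped, with means of 7138.5 ± 1078 and 6852.5 ± 1624 bp (SD, n = 2 each; exact permutation p = 1). Without 4-OHT replicate 2 the difference was -1434.5 bp, without 4-OHT replicate 1 it was 862.5 bp, and without control replicate 1 or 2 it was -1048.5 or 476.5 bp, so its direction changed with the replicate left out.

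Within 50 kb of the *Tbx6* TSS the control replicates covered 18575 and 22750 bp and the 4-OHT replicates 19050 and 23100 bp, a ratio of 1.02 (exact permutation p = 0.667, adjusted 0.829). Most of this belongs to the neighbors. Only 2 of 19 merged H3K27ac regions lay nearest to the *Tbx6* TSS. The promoter region, chr7:133922326-133926375, covered 2750 and 3800 bp in the control lists against 2025 and 3500 bp in the 4-OHT lists. The region over the gene end, chr7:133927676-133931600, covered 2200 and 3825 bp in the control lists against 2300 and 3175 bp in the 4-OHT lists. With these regions alone the difference was -1150 bp in place of 412.5 bp, again with overlapping replicates.

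The regions near *Tbx6* that were listed in control only lay closest to a neighbor. Of 9 merged H3K27ac regions in both control lists 2 were in neither 4-OHT list, beside 20.7% genome-wide. They lay at -32.7 kb (200 and 600 bp) and -26.2 kb (100 and 125 bp) and were both intergenic and nearest to *Mapk3*, the Erk1 kinase gene. Without overlap of replicates 3 of the 19 regions were lower and 4 higher, shares near the genome-wide 18.8% and 17.6%. The higher ones included the block over *Gm9967* and *Ypel3*, with 3800 and 3950 bp in the control lists against 4075 and 4350 bp in the 4-OHT lists, and that over *Aldoa*, with 3375 and 3525 bp in the control lists against 4250 and 4075 bp in the 4-OHT lists.

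Brg1 was bound at the end of *Tbx6*. The region chr7:133928976-133929325 overlaps the last exon and runs past it, and was covered for 225 and 300 bp in FLAG replicates 1 and 2. Its 350 bp were acetylated in all 4 H3K27ac lists. In the whole 50 kb window the FLAG replicates listed 2, 3 and 0 regions, covering 250, 475 and 0 bp. Within 5 kb of the TSS a Brg1-bound region was thus found at *T* and *Tbx6* and not at *Eomes*. This contrast depends on the window. The *T* region crosses its edge, with 263 of 300 bp inside, and within 2.5 kb of the TSS none of the 3 genes held a bound region. The bound regions of *T* and *Tbx6* also rest on FLAG replicates 1 and 2 together, and none remained when either was left out. At *Eomes* 1 of the 4 remained, the one listed in all 3.

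**Figure D3:**
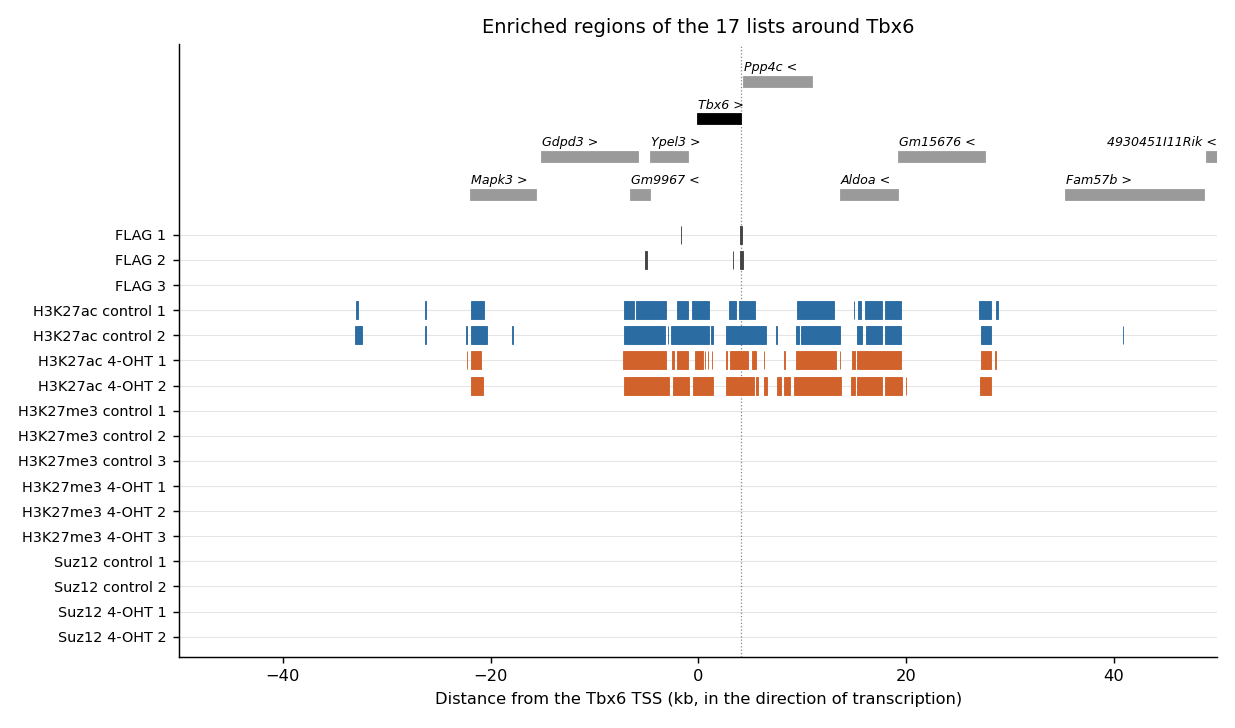
Enriched regions of all 17 lists within 50 kb of the *Tbx6* TSS, drawn as for *Eomes*: horizontal axis, distance from the TSS in kb; rows, replicates; dotted line, the center of the Brg1-bound region at the gene end. H3K27ac blocks over *Tbx6* and its neighbors are in all 4 lists, and the H3K27me3 and Suz12 rows are empty.

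Over the 7 Brg1-bound regions of the 3 genes, every one overlapped H3K27ac in both control lists, and 6 did so in both 4-OHT lists. The exception was the region at -33.0 kb of *Eomes*. Of the 11 H3K27ac regions that were in both control lists and neither 4-OHT list, it was also the only one with a Brg1-bound region. Of the 20 FLAG regions found in 1 list only, 16 lay within a control H3K27ac region. The matching shares over the whole genome were not counted, so these overlaps cannot be called particular to the 3 genes. The study reports that Brg1 and H3K27ac signals correlated highly across the genome, and that most Brg1-bound regions away from TSSs overlapped predicted enhancers. It also reports greater H3K27ac loss at enhancers bound by Brg1 than at unbound ones. That comparison used H3K27ac signal genome-wide. The counts here rest on presence in lists at 3 genes and cannot be set against it.

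H3K27me3 was listed at *Eomes* and *T* over short lengths and not at *Tbx6*. Within 5 kb of the *Eomes* TSS the control replicates covered 275, 2150 and 2025 bp and the 4-OHT replicates 850, 2350 and 1750 bp. At *T* they covered 150, 125 and 650 bp in the control lists against 450, 175 and 450 bp in the 4-OHT lists. The values overlapped at both genes, with means of 1483 ± 1048 and 1650 ± 755 bp at *Eomes* and 308 ± 296 and 358 ± 159 bp at *T* (SD, n = 3 each; exact permutation p = 0.8 for both, where 3 against 3 allow no p below 0.1). Without control replicate 3 the values at *T* no longer overlapped, with a difference of 220.8 bp. Without overlap, 12.0% of 4204 genes were lower and 0.190% higher, or 5.80% and 4.92% with lists scaled to the same total covered length.

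At *Eomes* the mark lay in 4 merged regions within 50 kb of the TSS, of which 1 was in all 6 lists, upstream of the TSS at chr9:118383901-118386575. At *T* it was scattered over 11 narrow regions, none of them in all lists. Both conditions listed 0 bp at *Tbx6*. In the gene bodies of *T* and *Eomes* the control lists held 0 bp, and the 4-OHT lists 100, 125 and 0 bp at *T* and 0, 0 and 50 bp at *Eomes*.

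Suz12 was listed at *T* after 4-OHT only. In the TSS window of *T* the control replicates covered 0 and 0 bp and the 4-OHT replicates 25 and 250 bp, in 1 region, chr17:8626176-8626425, inside the acetylated region at -1.20 kb. The replicates did not overlap (exact permutation p = 0.333, adjusted 0.880), as was so in this direction for 32.1% of 2290 genes and in the other for 5.76% (30.7% and 13.3% with scaled lists). The width of 25 bp in 1 replicate is the narrowest the lists hold, and with regions under 200 bp left out the groups overlapped. At *Eomes* the control replicates covered 0 and 175 bp and the 4-OHT replicates 125 and 1725 bp, which overlapped (exact permutation p = 0.667, adjusted 1). Without control replicate 2 or 4-OHT replicate 1 they did not, with differences of 925 and 1637.5 bp. No list named Suz12 at *Tbx6*.

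Acetylated and Polycomb-marked bases at the *Eomes* and *T* promoters coincided in part. At *Eomes*, of 2350 bp in any control H3K27me3 list, 1425 bp (60.6%) were also in a control H3K27ac list, and after 4-OHT 200 of 2825 bp (7.08%). At *T* these were 600 of 775 bp (77.4%) in control and 200 of 975 bp (20.5%) after 4-OHT. The lists of each mark were pooled within a condition for this count, so the shares have no spread over replicates and were not tested. The libraries are separate, so shared bases do not show both marks on 1 allele or in 1 cell.

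**Figure D4:**
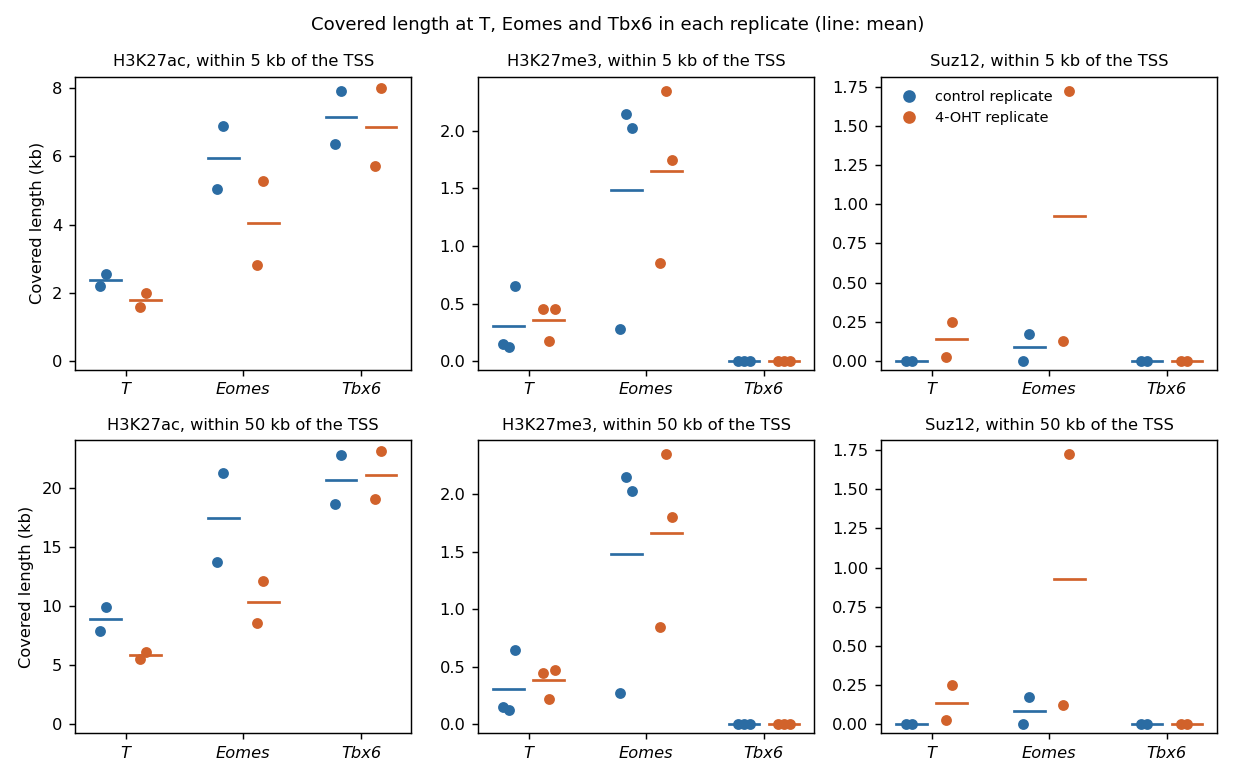
Covered length in kb at *T*, *Eomes* and *Tbx6* in each replicate (points; blue control, orange 4-OHT) with the mean of each group (line), for H3K27ac, H3K27me3 and Suz12 within 5 kb (top) and 50 kb (bottom) of the TSS. H3K27ac within 50 kb separates by condition at *T* and *Eomes* and overlaps at *Tbx6*.

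The plot of covered length by replicate shows the order of the genes. In control, H3K27ac within 5 kb was highest at *Tbx6*, then *Eomes*, then *T*. *Tbx6* and *Eomes* overlapped in their control replicates, 6376 to 7901 against 5050 to 6875 bp, whereas *T* lay below both. Within 50 kb the same order held, with overlap between *Tbx6* and *Eomes*. The order depends on the window and on the neighbors of *Tbx6*. With a half-width of 2.5 kb the control means were 4380 bp at *Eomes*, 3189.5 bp at *Tbx6* and 1575 bp at *T*. Within 50 kb, regions nearest each gene's own TSS alone gave 16475 bp at *Eomes*, 8862.5 bp at *T* and 6287.5 bp at *Tbx6*. For H3K27me3 *Eomes* was highest and overlapped *T*, and *Tbx6* was at 0.

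**Figure D5:**
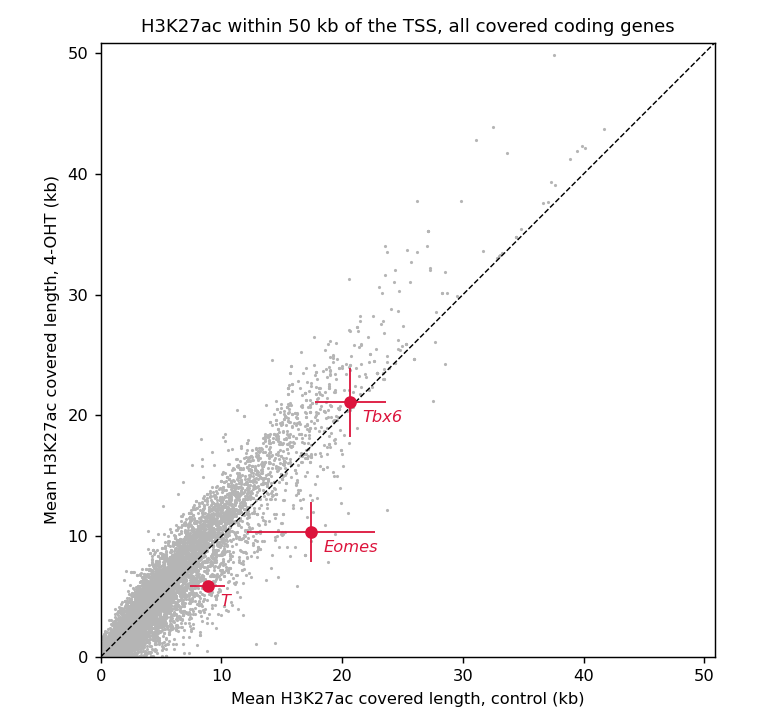
Mean H3K27ac covered length within 50 kb of the TSS in kb, control (horizontal axis) against 4-OHT (vertical axis), for the 17242 protein-coding genes covered in any list (gray points). Red points are *T*, *Eomes* and *Tbx6* with the SD of 2 replicates on each axis, and the dashed line marks equal values. *Eomes* and *T* lie below the line, with control means of 17437.5 and 8862.5 bp, and *Tbx6* close to it.

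Other regulators of the streak were read in the same windows, from a list of 25 genes. Within 5 kb of the TSS 21 of them carried H3K27ac, beside 12031 of all 22380 coding genes. Without overlap 10 were lower after 4-OHT (47.6%) and 2 higher (9.52%), beside 12.6% and 39.8% of all genes, with a median difference over the 21 of -312.5 bp beside 112.5 bp over all genes tested. The largest differences were those of *Gsc*, an organizer homeobox gene (4600 ± 1096 to 2262.5 ± 265 bp), *Snai1*, which drives the epithelial to mesenchymal transition (5682.5 ± 972 to 3470 ± 354 bp), and *Wnt3*, a signal needed to form the streak (5962.5 ± 1892 to 3912.5 ± 53.0 bp). *Mesp1*, a target of *Eomes* in cardiac mesoderm, went from 6051.5 ± 1166 to 4063.5 ± 689 bp, *Cer1*, a Nodal antagonist, from 1575 ± 389 to 162.5 ± 230 bp, and *Evx1* from 5237.5 ± 937 to 4325 ± 212 bp (SD, n = 2 each). *Fgf8* and *Fgf4* were the 2 higher ones. Within 50 kb *Fgf8* was higher too, whereas *Fgf4* was lower, from 2737.5 ± 937 to 1625 ± 141 bp.

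Within 50 kb 24 of the 25 regulators carried H3K27ac, beside 17242 of all 22380 coding genes. Of the 24, 16 were lower (66.7%) and 3 higher (12.5%) without overlap, beside 20.0% and 39.7% of all genes. The median difference was -2175 bp beside 162.5 bp over all genes. *Mesp1* and *Mesp2* share this window. For H3K27me3 within 5 kb 16 were covered, beside 4204 of the 22380 coding genes. Of the 16, 0 were lower or higher, beside 12.0% and 0.190% of all genes. For Suz12 14 were covered, beside 2290 of the 22380 coding genes. Of the 14, 6 were higher (42.9%) and 2 lower (14.3%), beside 32.1% and 5.76% of all genes. Among these 8 genes the largest differences were at *Foxa2* (6733.5 ± 725 to 4800 ± 1202 bp), *Gsc* (5262.5 ± 548 to 6862.5 ± 442 bp) and *Dll1* (0 in both control replicates to 912.5 ± 53.0 bp), which encodes a Notch ligand of paraxial mesoderm.

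The other T-box genes mostly carried H3K27me3. Of 14, 10 carried H3K27me3 within 5 kb of the TSS, beside 4204 of all 22380 coding genes. Their control means ran from 3300 bp at *Tbx21* to 8934 bp at *Tbx15*, all above the 1483 bp of *Eomes*. None was lower or higher without overlap, beside 12.0% and 0.190% of all genes. The same 10 carried Suz12, beside 2290 of the 22380 coding genes. Of these 10, *Tbx5* was lower, beside 5.76% of all genes, and the other 9 overlapped. H3K27ac was listed within 5 kb at 4 of the 14, beside 12031 of all 22380 coding genes. Of the 4, *Tbx3* was lower, from 5261.5 ± 723 to 3612.5 ± 689 bp. *Tbx2* was higher, from 0 in both control replicates to 150 ± 177 bp (SD, n = 2 each). Among all genes 12.6% were lower and 39.8% higher. Within 50 kb 9 of the 14 carried H3K27ac, 2 lower (22.2%) and 3 higher (33.3%), beside 20.0% and 39.7% of all genes. There *Tbx2* was lower, from 1325 ± 1096 to 162.5 ± 159 bp.

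The genes most like each of the 3 were found as those with the smallest mean absolute difference in covered bases within 5 kb of the TSS over the 17 lists. For *T* they were *Mpp5*, *Uhrf2*, *Mex3b*, *Elf2* and *Car2*, at 105 to 164 bp, beside a median over genes of 641 bp. For *Eomes* they were *Zfp703*, *Zfpm1*, *6330403L08Rik*, *Lef1* and *Pdgfa*, at 547 to 668 bp, beside 1778 bp. *Zfp703* covered 5321.5 bp of H3K27ac in the control mean and 3300 bp after 4-OHT, with 2017 and 1325 bp of H3K27me3 and 0 and 2000 bp of Suz12. For *Tbx6* they were *Igf2bp1*, *Chd2*, *Hist1h2af*, *Hsp90aa1* and *Prdx2*, at 148 to 214 bp, beside 1680 bp, and all 5 had 0 bp of H3K27me3 and Suz12.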

How the data were processed

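ChIP-seq was done in mesodermal cultures at day 4. Per the labels, the samples number 28, of which 11 are inputs, and the authors deposited 17 lists of enriched regions, 1 for each replicate, not pooled. Other than position the lists hold no unit: no score, count or signal, so read depth is unknown and the number of replicates limits the precision. Reads were aligned to mm9, per the labels with Bowtie (version not given in the sources used here), and regions were called over input. The deposited lists carry a threshold of 1e-06 for FLAG and 1e-12 for the other antibodies. Positions were matched to the mm9 genome and its GENCODE annotation.

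From these lists the covered bases were taken within 5 kb and 50 kb of the most upstream TSS and in the gene body, for all protein-coding genes. Regions that shared at least 1 bp were merged over lists, and a region was Brg1-bound when in at least 2 of 3 FLAG lists. Conditions were compared by a two-sided exact permutation test with Benjamini-Hochberg adjustment, and a gene or region was called lower or higher when replicates of the conditions did not overlap. The smallest p was 0.333 for 2 against 2 and 0.1 for 3 against 3. Replicates are biological, per the labels.

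Same-numbered H3K27me3 replicates deviated together from their group means over genes (correlations 0.908, 0.819 and 0.763). So did control 2 with 4-OHT 3 (0.583) and control 3 with 4-OHT 2 (0.647), less strongly. Replicate 1 covered the least in both conditions (8.38 Mb in control, 4.74 Mb after 4-OHT). The study states that its design let control and treated groups be compared within a single differentiation. The sources used here do not say that equal replicate numbers mark a shared differentiation. Whether the numbers mark pairs is thus not settled, and the permutation tests took the samples as unpaired. The genes, lists and motifs were chosen with earlier results of these data known. Named genes are the 3 T-box genes, coding genes that begin within 50 kb of them where a region is described, 25 streak regulators (the largest called differences in each mark), 14 other T-box genes, markers of 5 cell types and the 5 nearest genes in covered length. *Sft2d1*, *T2*, *Gm16702* and the U4 gene, outside this rule, were named for their position after the data were seen. *Sox1* was not found in the annotation. On simulated data covered length was right in 400 of 400 windows, counted base by base. With covered length removed in 2 simulated replicates against 2, 200 of 200 changed and 138 of 800 unchanged genes were called lower. The simulated loss was larger than that at *T* within 5 kb (ratio 0.753). The simulated replicates also spread less than those of *Eomes* within 5 kb after 4-OHT (4050 ± 1732 bp). These counts therefore do not give the rate of calls in the real lists. Alternatives were other window widths and TSSs, wider regions only, regions joined, lists scaled by total length, replicate pairs, other overlaps and each replicate left out. Calculations used NumPy 2.4.6 and SciPy 1.17.1 under Python 3.11.15, and figures were drawn with Matplotlib 3.10.9.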

Additional observations from a re-analysis of the deposited data

How the results depend on the processing

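Of 243 alternatives over 31 results, 195 kept the separation of the replicates or, where these overlapped, stayed within 1 SD of the reported value. Within those 195, 24 differences with overlapping replicates changed sign, 14 of them with a replicate left out. They were not counted as reversals, a rule set after the first results were seen; 3 alternatives reversed under it, and 27 would if any sign change counted. The sign of the H3K27me3 differences at *T* and *Eomes*, of all *Tbx6* H3K27ac differences and of that in the *Eomes* gene body is therefore not settled. For *Tbx6* H3K27ac, scaling to the total covered length gave 309.8 bp within 5 kb, and regions nearest the *Tbx6* TSS alone gave -1150 bp within 50 kb. The lower H3K27ac within 50 kb of *T* and *Eomes* held under every alternative tried, with differences of -4025 to -2000 bp at *T* and of -10850 to -3325 bp at *Eomes* when 1 replicate was left out. With regions within 1 kb joined, the difference within 5 kb became -175 bp at *T*, with overlap, and -2165 bp at *Eomes*, without overlap, and the difference in the *T* gene body turned to 25 bp. A half-width of 2.5 kb gave -1362.5 bp at *Eomes*, without overlap. Regions of at least 200 bp only left a Suz12 difference of 125 bp at *T*, with overlap.

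In the paired analysis (replicate block) both pairs moved alike for *Eomes* H3K27ac within 5 kb (-1912.5 bp), *Eomes* H3K27ac in the gene body (-898 bp), *Eomes* Suz12 (837.5 bp) and *Tbx6* H3K27ac within 50 kb (412.5 bp). The block changed no other call, and 2 pairs allow no p below 0.5 and 3 pairs none below 0.25. The H3K27ac and Suz12 numbers are shared by 2 pairs each, with correlations of 0.440 and 0.505, which is not enough to say that they pair the samples.

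Leaving out 1 replicate gave differences of -41.7 to 220.8 bp for *T* H3K27me3 within 5 kb, -3137.5 to -687.5 bp for *Eomes* H3K27ac within 5 kb, 37.5 to 1637.5 bp for *Eomes* Suz12, -1434.5 to 862.5 bp for *Tbx6* H3K27ac within 5 kb, and -1675 to 2500 bp within 50 kb. In the *Tbx6* gene body the range was -562.5 to 587.5 bp, from leaving out 4-OHT replicate 2 or 1. Brg1-bound regions within 50 kb numbered 0 to 2 at *T*, 1 to 4 at *Eomes* and 0 to 1 at *Tbx6* with a FLAG replicate left out, and 10, 13 and 4 when 1 FLAG list sufficed. The lists without depth or signal limit each result to presence at the authors' thresholds. The cause of these shifts was not tested.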
